A study of Mus musculus with 6 samples.

Results

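Enolase is the glycolytic enzyme that turns 2-phosphoglycerate into phosphoenolpyruvate, and mammals make it from a small family of genes. Eno1 encodes the ubiquitous isoform, Eno2 the isoform known as neuron-specific enolase, and Eno3 the muscle isoform, which takes over from Eno1 as heart and skeletal muscle mature. The active enzyme is a dimer of these subunits. Eno1b is annotated as a retrogene, a copy of processed Eno1 RNA inserted elsewhere in the genome. The members were the 4 of 47729 gene IDs in the deposited count table that carry the names Eno1, Eno1b, Eno2 and Eno3 in the GENCODE M21 annotation of GRCm38. All 4 passed the filter on low counts. Eno2 was selected on its levels in these same 6 libraries, lower in Treg than in Control. Its values are therefore given as a description with no test. Eno1, Eno1b and Eno3 entered as the other isoforms whatever their values, though earlier results of these data were known.

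The samples were mouse left ventricle at day 9 of TAC, transverse aortic constriction, in which a narrowed aorta loads the left ventricle with pressure. There were 3 Treg libraries, which the series title ties to systemic administration of CD28-deprived regulatory T cells induced in vitro, and 3 Control libraries, for which the labels state no injection or vehicle. Both groups had TAC, and no unoperated heart was analysed here. Strain, sex, age and whether each library was its own animal are not given in the labels, so p-values measure only the spread between these libraries.

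Library totals were 29841591 to 29979080 estimated counts in the Treg group and 28937253 to 29842787 in the Control group. Control replicate 3 stood apart: its log2 CPM over all tested genes correlated with the other 5 libraries at 0.936 to 0.957, against 0.967 to 0.991 among those 5. Summed levels of 15 ventricular cardiomyocyte markers were 63676 to 82266 CPM (counts scaled to the TMM-adjusted library total) in Treg libraries and 49100 to 73411 CPM in Control libraries, lowest in Control replicate 3. Treg replicate 3 held more atrial RNA, with 5 atrial markers summing to 163 CPM against 15.6 to 48.5 CPM in the other libraries. In bulk tissue, fewer cells of a type and less RNA per cell cannot be told apart.

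Eno1 lies on the plus strand of chromosome 4 from 150236721 to 150248879, Eno2 on the minus strand of chromosome 6 from 124760053 to 124769673, and Eno3 on the plus strand of chromosome 11 from 70657202 to 70662513, all on GRCm38. Each of these has 12 exons in its principal GENCODE transcript, 11 of them coding, and each encodes 434 residues. No other annotated gene overlaps Eno1, Eno2 or Eno3.

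How far the isoforms differ over the length of 1 read, 101 bases, is shown by the following stretches. They are the first 101 bases of exon 7 of the 12 exons in each gene, a coding exon, from GENCODE M21 transcripts on GRCm38. They are written 5′ to 3′ along the transcript, with capitals at the 23 positions that are not the same in all 3 genes. The positions are chr4:150245115-150245215 on the plus strand for Eno1, chr6:124766227-124766327 on the minus strand for Eno2 and chr11:70660660-70660760 on the plus strand for Eno3.
Eno1: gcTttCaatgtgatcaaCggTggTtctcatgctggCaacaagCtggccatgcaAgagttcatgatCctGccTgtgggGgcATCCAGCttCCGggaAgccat
Eno2: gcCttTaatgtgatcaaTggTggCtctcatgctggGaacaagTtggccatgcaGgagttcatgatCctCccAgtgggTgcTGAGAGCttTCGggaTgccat
Eno3: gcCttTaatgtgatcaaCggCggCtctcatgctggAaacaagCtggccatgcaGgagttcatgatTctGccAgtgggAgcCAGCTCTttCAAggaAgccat
In this stretch Eno2 differs from Eno1 at 16 bases, Eno3 from Eno1 at 17, and Eno2 from Eno3 at 18. Over the whole coding sequence of 1302 bases, identity with Eno1 was 75.1% for Eno2 and 76.7% for Eno3, against 99.4% for Eno1b, which differs from Eno1 at 8 bases. None of the 2695 windows of 101 bases in the Eno2 transcript, and none of the 1464 in Eno3, occurs in a transcript of another gene.

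The retrogene Eno1b (GRCm38 chromosome 18, 48045335 to 48048412, plus strand) carries its coding sequence in a single exon and lies within AC150274.2, a sense overlapping gene that is not used here. Eno1 shares reads with it and with pseudogenes. Of its 1927 windows of 101 bases, 1133 (58.8%) occur exactly in another annotated gene: 1124 in Eno1b, 831 in the processed pseudogene Gm4735 on chromosome 2 and 20 in the processed pseudogene Gm5855 on chromosome 3. The counts of these copies followed those of Eno1 in a nearly fixed proportion in every library. Eno1b held 27% to 28.8% of the Eno1 count, Gm4735 15.9% to 16.3% and Gm5855 4.38% to 5.28%. The sources used here do not say how reads that match several genes were divided, so RNA of Eno1 and RNA of its copies cannot be told apart in these counts.

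**Figure D1:**
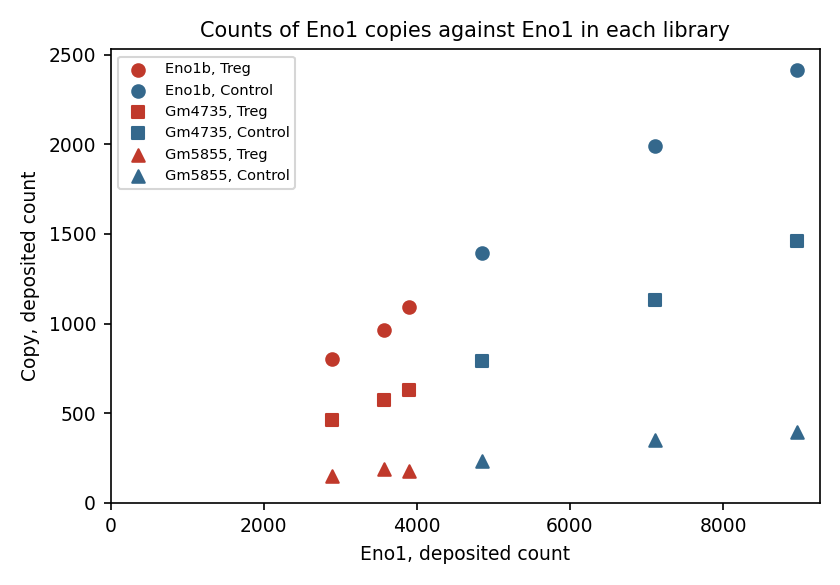
Deposited counts of the Eno1 copies Eno1b, Gm4735 and Gm5855 (vertical axis) against the deposited count of Eno1 (horizontal axis), 1 point per library, red for Treg and blue for Control. Each copy lies along a line through the origin, with Eno1b at 27% to 28.8% of Eno1 in all 6 libraries.

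Eno1 was lower in the Treg libraries. It stood at 118, 104 and 123 CPM in Treg replicates 1 to 3, against 170, 236 and 302 CPM in Control replicates 1 to 3. Every Treg library lay below every Control library, the Treg values lay close together, and the Control values spread widely, with Control replicate 3 highest. The means were 115 ± 9.45 CPM in Treg and 236 ± 65.8 CPM in Control (SD, n = 3 each), and the log2 fold change of Treg over Control was −1.04 ± 0.21 (SE). This did not pass the threshold: edgeR's quasi-likelihood test with Benjamini-Hochberg adjustment over all 17365 tested genes gave an adjusted p of 0.136. DESeq2, which called 1.97% of the genes it tested lower in Treg, gave an adjusted p of 0.000785.

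The groups failed to overlap in that direction at 11.7% of all genes, in the other at 13.7% and in either at 25.4%, so a lack of overlap is common in these data. A log2 fold change of −1 or lower, as Eno1 and Eno1b had, was found at 2.61% of all genes. Those rows share reads, so they are not separate instances. Eno2 was selected on its levels here, so that share is not set beside it. By edgeR the threshold was passed by 0 of 17365 genes (0%), while 2873 (16.5%) had an unadjusted p under 0.05. The looser limit of 0.1 on the adjusted p took in 82 genes (0.472%), 38 of them (0.219%) lower in Treg, and Eno1, Eno1b and Eno3 were not among them. DESeq2 called 650 genes (3.9%). The newer dispersion method of edgeR and limma-voom each called 0, with 2925 and 2816 genes at an unadjusted p under 0.05. With Control replicate 3 left out, 230 genes were called by edgeR, and Eno1 then had a log2 fold change of −0.82 ± 0.16 with an edgeR adjusted p of 0.0595.

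Eno1b shares 1040 of its 1691 windows of 101 bases (61.5%) with Eno1. It stood at 31.8, 29 and 34.2 CPM in Treg libraries, against 48.9, 65.9 and 81.3 CPM in Control libraries, a log2 fold change of −1.05 ± 0.19 (SE, n = 3 each; edgeR adjusted p = 0.116). It passed the edgeR threshold without Control replicate 3 (−0.86 ± 0.14, adjusted p = 0.0415). With Eno1 and Eno1b summed into a single gene the log2 fold change was −1.04 ± 0.21 and the edgeR adjusted p 0.136, and adding both pseudogenes as well left these at −1.04 ± 0.21 and 0.137.

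Eno2 had the lowest level per transcript length and the log2 fold change farthest from 0 among the 4 members. It stood at 9.17, 9.38 and 12.9 CPM in Treg libraries, against 31.3, 26.1 and 35.2 CPM in Control libraries. Every Treg library lay below every Control library, and Control replicate 3, though highest, lay close to the other controls. The means were 10.5 ± 2.12 CPM in Treg and 30.9 ± 4.6 CPM in Control (SD, n = 3 each), a log2 fold change of −1.56 ± 0.19 (SE), or a level in Treg libraries of 0.34 times that in Control libraries. The log2 fold change lay between −1.73 and −1.45 in all 19 alternative settings, among them each omission of a library.

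Eno3, the muscle isoform, had the highest level per transcript length of the 4 members in every library, and its groups were not separated. It stood at 902, 1086 and 761 CPM in Treg libraries, against 949, 930 and 355 CPM in Control libraries. Control replicate 3 stood alone at the bottom, and the groups overlapped. The means were 916 ± 163 CPM in Treg and 745 ± 338 CPM in Control (SD, n = 3 each), a log2 fold change of 0.30 ± 0.36 (SE; edgeR adjusted p = 0.686). The sign rested on that library: without Control replicate 3 the log2 fold change was −0.04 ± 0.19 (edgeR adjusted p = 0.948). Control replicate 3 was also lowest in summed ventricular cardiomyocyte markers, and the part of that in its Eno3 level was not tested.

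The remaining family gene, Eno4, lies on chromosome 19 and was at 1 to 4 counts in every library, too few to test.

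**Figure D2:**
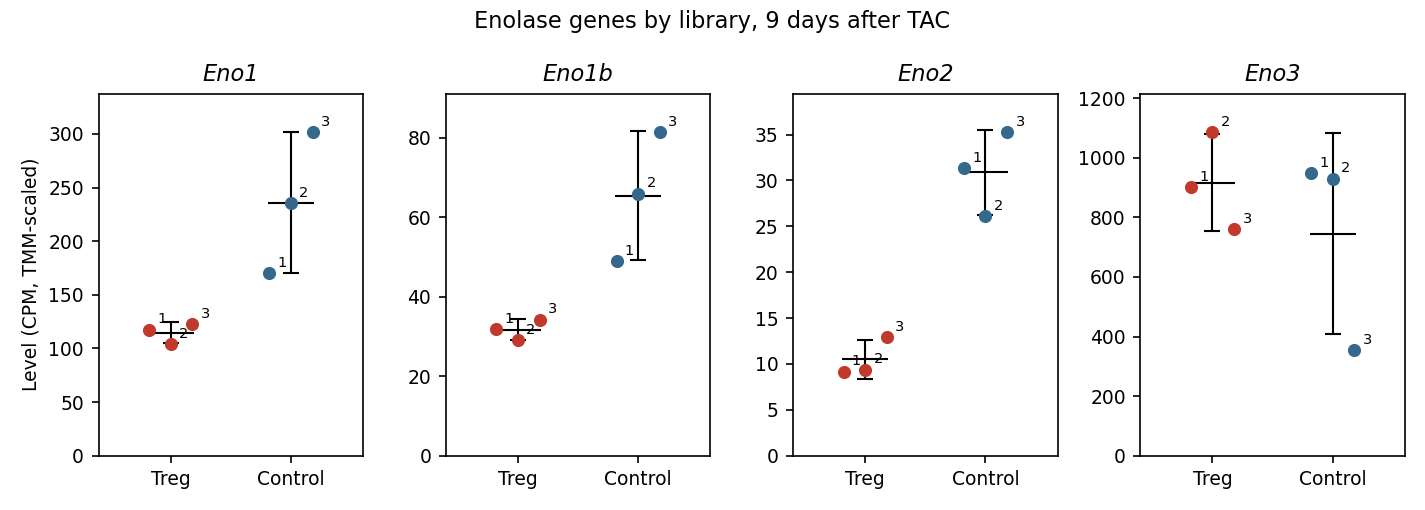
Levels of Eno1, Eno1b, Eno2 and Eno3 in each library (CPM on TMM-scaled library sizes, linear axes from 0), Treg on the left and Control on the right, with replicate numbers beside the points and the mean ± SD of 3 libraries. Treg points lie below all Control points for Eno1, Eno1b and Eno2, and the groups overlap for Eno3, where Control replicate 3 is at 355 CPM.

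Per kilobase of the principal transcript, the order of levels was Eno3, then Eno1, then Eno2 in all 6 libraries. Eno3 averaged 586 ± 104 CPM per kb in Treg and 476 ± 216 in Control, Eno1 averaged 56.6 ± 4.66 in Treg and 116 ± 32.4 in Control, and Eno2 averaged 3.75 ± 0.758 in Treg and 11 ± 1.64 in Control (SD, n = 3 each). The ratio of Eno3 to Eno1 on this scale was 8.05 to 13.5 in Treg libraries and 1.53 to 7.23 in Control libraries. Against the Eno1 row alone, the muscle isoform thus led everywhere, with the smallest ratio in Control replicate 3. With the copies added to Eno1, the shares per transcript length there were 49.4% for Eno3 and 47.8% for Eno1. Of the undivided counts of Eno1, Eno1b and Eno3, Eno3 held 48.1% in that library, so it did not lead on that measure.

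The balance of the muscle and the ubiquitous isoform does not use Eno2. It is drawn from the same Eno1 and Eno3 values described above, so it is not a separate result. Eno3 made up 88.5%, 91.2% and 86.1% of the summed Eno1 and Eno3 counts in Treg libraries, against 84.8%, 79.8% and 54.1% in Control libraries. Every Treg library lay above every Control library. The means were 88.6% ± 2.55 and 72.9% ± 16.5 (Treg and Control, SD, n = 3 each), a difference of 15.7 percentage points with an exact two-sided permutation p of 0.1, the smallest that 3 libraries against 3 can give. Without Control replicate 3 the difference was 6.32 points. The difference was 13.7 points when counts were divided by transcript length and 17.6 points when Eno1b was added to Eno1.

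With Eno1 and its 3 copies summed and all counts taken per transcript length, Eno3 made up 83.7% to 89.7% of enolase RNA in Treg libraries and 49.4% to 81.6% in Control libraries. The ubiquitous isoform with its copies made up 9.89% to 15.5% in Treg and 16.9% to 47.8% in Control. Eno2 made up 0.492%, 0.433% and 0.795% in Treg libraries, against 1.51%, 1.2% and 2.75% in Control libraries.

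**Figure D3:**
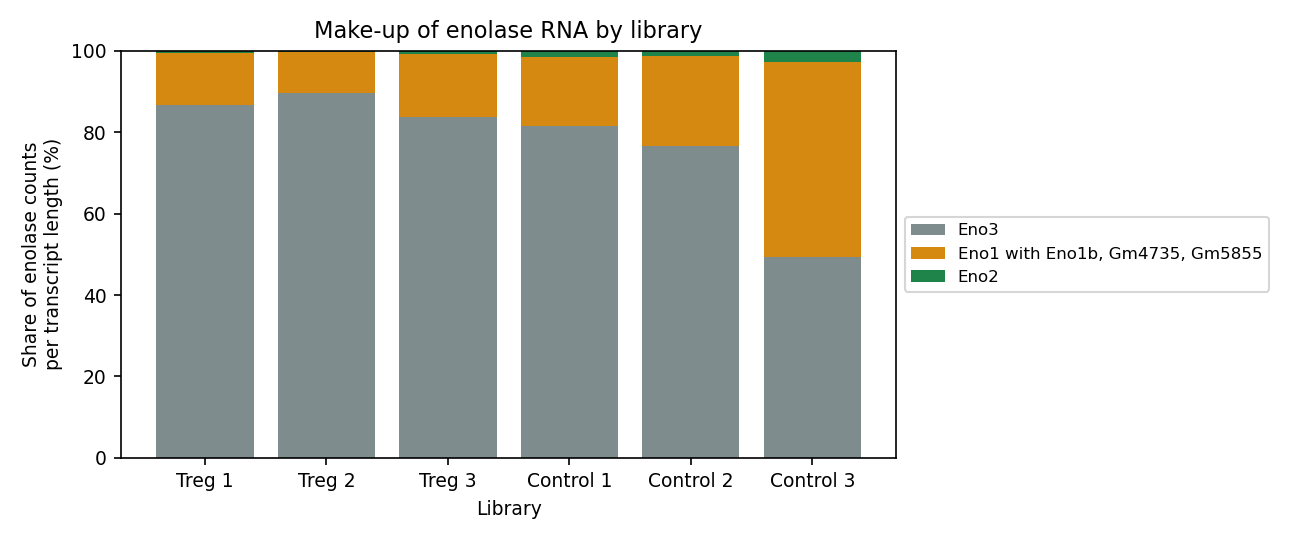
Share of enolase counts per transcript length held by Eno3, by Eno1 with its copies Eno1b, Gm4735 and Gm5855, and by Eno2 in each library (percent of all enolase, stacked). Eno3 holds 83.7% to 89.7% in the Treg libraries and 49.4% to 81.6% in the Control libraries, with the lowest share in Control replicate 3.

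Genes of the steps on either side of enolase were read next. Pgk1, phosphoglycerate kinase, stood at 365, 420 and 404 CPM in Treg libraries against 745, 820 and 688 CPM in Control libraries, a log2 fold change of −0.92 ± 0.15 (SE; edgeR adjusted p = 0.0989). Pkm, the pyruvate kinase that uses the product of enolase, stood at 1013, 1068 and 994 CPM in Treg libraries against 1561, 1613 and 1681 CPM in Control libraries (−0.66 ± 0.14; edgeR adjusted p = 0.136). For both genes all Treg libraries lay below all Control libraries and neither passed over all genes; DESeq2 gave adjusted p-values of 1.66e-07 and 4.21e-06, and Pgk1 passed with edgeR without Control replicate 3 (adjusted p = 0.0364).

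The mutase step before enolase has a widely expressed isoform, Pgam1, and a muscle isoform, Pgam2. Pgam1 stood at 53, 63 and 64.9 CPM in Treg libraries against 68.6, 91 and 77 CPM in Control libraries (log2 fold change −0.39 ± 0.15, edgeR adjusted p = 0.28), with no overlap. Pgam2 stood at 361, 380 and 315 CPM in Treg libraries against 304, 384 and 260 CPM in Control libraries (0.16 ± 0.18, edgeR adjusted p = 0.669), and the groups overlapped. Bpgm, which makes 2,3-bisphosphoglycerate, had a log2 fold change of −0.17 ± 0.16 and Pck2, which makes phosphoenolpyruvate from oxaloacetate in mitochondria, −0.01 ± 0.18. Pck1 and Pklr were at 0 to 4 counts in every library and were not tested.

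Across the 17 tested genes of the other glycolytic steps, of 22 listed, 0 had an edgeR adjusted p under 0.05. At an unadjusted p under 0.05 there were 5 lower and 1 higher in Treg, where 8.31% of all tested genes were lower and 8.23% higher by that rule. Their median log2 fold change was −0.37, against −0.02 over all genes. The gene lists were all chosen with earlier results of these data known, so their counts are a description, not independent support. Without Control replicate 3 there were 8 lower and 1 higher (median −0.34, against 8.8% of all genes lower and 9.74% higher). Pfkp, the phosphofructokinase isoform first described in platelets, stood at 93.1, 133 and 141 CPM in Treg libraries against 272, 244 and 200 CPM in Control libraries (−0.96 ± 0.20, edgeR adjusted p = 0.136). It passed by DESeq2 (adjusted p = 0.0016) and, with edgeR, without Control replicate 3 (−1.08 ± 0.19, adjusted p = 0.0437). Pfkm, the muscle phosphofructokinase, stood at 730, 789 and 620 CPM in Treg libraries against 599, 411 and 348 CPM in Control libraries (0.66 ± 0.23, edgeR adjusted p = 0.253). All Treg libraries lay below all Control libraries for Pfkp and above them for Pfkm. The difference between these isoforms was not tested.

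**Figure D4:**
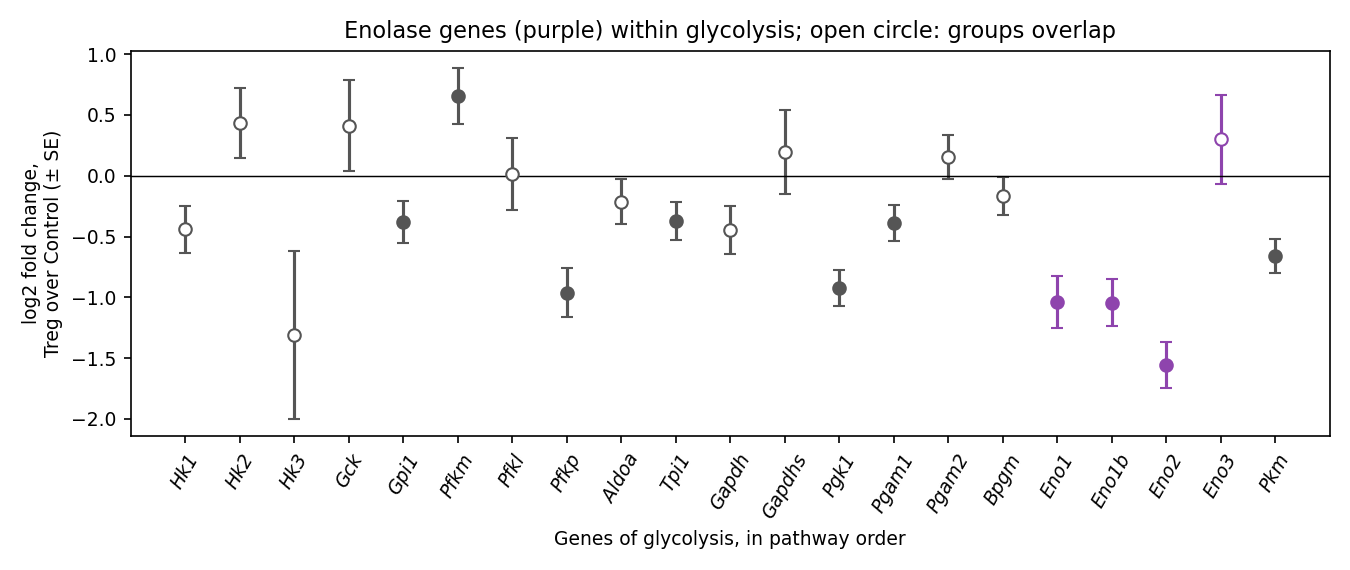
Log2 fold change of Treg over Control with its standard error (edgeR, n = 3 each) for the enolase genes, in purple, and the other tested genes of glycolysis, in pathway order. Filled circles mark genes whose groups did not overlap: Eno1, Eno1b and Eno2 lie near −1.04, −1.05 and −1.56, while Eno3, at 0.30, is an open circle, as is Pgam2 at 0.16.

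Of 14 tested muscle-type metabolic enzymes, 0 passed by edgeR's adjusted p, and DESeq2 called 1, Cox7a1 (adjusted p = 0.019). At an unadjusted p under 0.05 there were 0 lower and 6 higher in Treg, beside 8.31% lower and 8.23% higher over all genes. Fold changes were below 0 for 4 of the 14, and their median log2 fold change was 0.37, against −0.02 over all genes. This list too was chosen with earlier results of these data known. Without Control replicate 3 there were 1 lower and 3 higher (median 0.32), beside 8.8% lower and 9.74% higher over all genes. The leading genes were Cox7a1 (0.73 ± 0.19, edgeR adjusted p = 0.176), Cox8b (0.48 ± 0.18) and Cox6a2 (0.41 ± 0.16), which encode muscle forms of cytochrome oxidase subunits, and Pfkm. Beside this list, the sum of the ventricular cardiomyocyte markers was lowest in Control replicate 3, as given above. Single markers differed: Myh6, at 12476 CPM, was lowest in that library, and Csrp3, at 1302 CPM, was highest in it.

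Eno1 is a known target of HIF-1, the transcription factor of the hypoxia response, and other targets were read beside it. Of 24 such genes, all tested, 0 had an edgeR adjusted p under 0.05, while at an unadjusted p under 0.05 there were 10 lower and 1 higher in Treg, beside 8.31% lower and 8.23% higher over all genes. Their median log2 fold change was −0.32, against −0.02 over all genes. The HIF-1 list was likewise chosen with earlier results of these data known, so these counts are a description. Without Control replicate 3 there were 7 lower and 0 higher (median −0.25), beside 8.8% lower and 9.74% higher over all genes. Slc16a3, the lactate exporter MCT4, stood at 4.55, 6.24 and 8.7 CPM in Treg libraries against 16.4, 25.4 and 17 CPM in Control libraries (−1.59 ± 0.28, edgeR adjusted p = 0.113). Car9, carbonic anhydrase 9, had −1.45 ± 0.37 and Ldha, lactate dehydrogenase A, −0.58 ± 0.15 (edgeR adjusted p = 0.177 and 0.184). Hmox1, heme oxygenase 1, had −2.52 ± 0.81, which became −0.89 ± 0.31 without Control replicate 3, where it stood at 188 CPM. Vegfa, at 0.18 ± 0.21, and Pdk1, at 0.31 ± 0.24, named after their values were seen, overlapped between the groups.

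The promoter of Eno2 is shown because Eno2 had the largest difference of the isoforms. It is the RefSeq window on GRCm38.p6, chr6:124769624-124769923 on the minus strand, written 5′ to 3′, from 250 bases before the start to 50 bases after it. It was searched on either strand for the core of the hypoxia response element, in the form ACGTG and, separately, in the form GCGTG.
Eno2: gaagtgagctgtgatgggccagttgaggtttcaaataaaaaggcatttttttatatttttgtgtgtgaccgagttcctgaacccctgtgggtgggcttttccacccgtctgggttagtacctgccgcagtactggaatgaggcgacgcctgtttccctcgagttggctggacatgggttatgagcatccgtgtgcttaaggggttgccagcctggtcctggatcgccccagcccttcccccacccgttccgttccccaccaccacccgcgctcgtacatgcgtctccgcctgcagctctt
Neither form is present in this window, so no letter is in capitals, nor is CACGTG, the E-box bound by clock and MYC factors, which contains ACGTG. The form GCGTG occurs at 2 places in each of the 3 RefSeq promoter windows of Eno1 and at 1 place in that of Eno3. The Eno1 windows chr4:150236947-150237246 and chr4:150236974-150237273 overlap and hold the same 2 places. The other motifs occur in none of them. Of 32851 promoter windows of the same length, 32.4% hold GCGTG, 19.6% hold the form ACGTG and 7.15% hold the E-box CACGTG on either strand.

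Because Eno2 is best known from neurons and neuroendocrine cells, markers of those cells were read beside it. Of 23 such genes, 7 had enough counts to be tested and 0 passed by edgeR's adjusted p. At an unadjusted p under 0.05 there were 2 lower and 3 higher in Treg, beside 8.31% lower and 8.23% higher over all genes. The 23 genes' summed level was 25.7 to 26.2 CPM in Treg libraries and 25.9 to 50.4 CPM in Control libraries. Among the untested markers, Chga was at 0 to 1 counts, Rbfox3 at 0 to 2 and Snap25 at 0 to 5, and Syt1 was at 0 in every library. Others were higher, with Npy at 4 to 36 counts, Chgb at 4 to 30 and Elavl3 at 1 to 20. Of the tested markers, Stmn2 stood at 5.18 to 8.14 CPM and Map2 at 4.17 to 5.74 CPM, and both overlapped between the groups. All of these were named outside the naming rule given below. Eno2 was at 260 to 1047 deposited counts. The tested members had fold changes of both signs. Uchl1, a ubiquitin hydrolase, stood at 4.32, 5.34 and 4.43 CPM in Treg libraries against 21.1, 14 and 6.83 CPM in Control libraries (−1.57 ± 0.38, edgeR adjusted p = 0.165), and passed without Control replicate 3 (−1.90 ± 0.20, edgeR adjusted p = 0.0162). Tubb3, a neuronal tubulin, had −2.12 ± 0.68, with its highest level in Control replicate 2 at 19.5 CPM. Dbh, the enzyme that makes noradrenaline, had 1.92 ± 0.5 (edgeR adjusted p = 0.185), and Syp, synaptophysin of synaptic vesicles, 0.94 ± 0.28. Both were at low levels, Dbh at 0.202 to 2.64 CPM and Syp at 0.64 to 1.98 CPM over the 6 libraries. The part of these cells in the Eno2 level was not tested.

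Markers of other cell types were measured alongside. Platelet and megakaryocyte genes summed to 17.1 to 19.3 CPM in Treg libraries and 22.8 to 75.5 CPM in Control libraries, highest in Control replicate 3. Macrophage markers summed to 452 to 663 CPM in Treg and 443 to 1052 CPM in Control, and fibroblast markers to 4635 to 7520 CPM in Treg and 5855 to 8756 CPM in Control. Of the 10 fibroblast markers, Gsn and Dcn were higher in every Treg library than in every Control library, beside 13.7% of all genes. The others overlapped. Endothelial markers summed to 985 to 1218 CPM in Treg and 914 to 1792 CPM in Control, also highest in Control replicate 3. Single endothelial markers, named after their values were seen, differed. Fabp4, at 1005 CPM, Pecam1 and Egfl7 were highest in that library, while Cdh5, Kdr, Tie1, Tek and Vwf were not. Neutrophil markers summed to 8.79 to 19.3 CPM in Treg and 7.26 to 41.5 CPM in Control, again highest in Control replicate 3. Their sums in Control replicates 1 and 2, 7.26 and 10.4 CPM, lay below those in Treg replicates 1 and 2, 19.3 and 16.9 CPM. Erythroid genes summed to 1075 to 1923 CPM in Treg and 292 to 2853 CPM in Control, and Schwann cell markers to 24.4 to 30.8 CPM in Treg and 22.2 to 26.7 CPM in Control. Skeletal muscle markers summed to 153 to 166 CPM in Treg and 48.7 to 280 CPM in Control. Of the 6 platelet and megakaryocyte genes with enough counts to test, Itgb3 and Gp1bb were lower in every Treg library than in every Control library. Over all genes, 11.7% were so. The other 4 overlapped. Itgb3, an integrin subunit, stood at 4.52, 5.41 and 4.49 CPM in Treg libraries against 10.1, 8.77 and 32.8 CPM in Control libraries. Of the overlapping genes, Ppbp and Clec1b had log2 fold changes of 1.13 and 0.29, and Pf4 and Itga2b of −1.30 and −0.50. The part of these cell types in the enolase levels was not tested.

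Over the 6 libraries, log2 CPM of Eno1 correlated with Eno2 at r = 0.90 and with Eno3 at −0.70, and Eno2 with Eno3 at −0.53. These values describe 6 points that fall into the study's groups, with Control replicate 3 at the end of the range. Of 12767 genes averaging 1 CPM or more, the 5 most like Eno2 by Pearson's r of log2 CPM over the 6 libraries were Anxa7 (0.997), Carhsp1 (0.996), Col5a3 (0.996), Msn (0.995) and Cpne2 (0.993). Msn, which encodes the membrane linker moesin, stood at 269, 275 and 324 CPM in Treg libraries against 544, 525 and 658 CPM in Control libraries. Col5a3, a chain of type V collagen, stood at 29.1, 26 and 36 CPM in Treg libraries against 71, 62.9 and 79.6 CPM in Control libraries.

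The 5 genes most like Eno1 were Hddc2 (0.999), Pold2 (0.998), Mettl9 (0.997), Anxa3 (0.996) and Rpl10a-ps1 (0.996). Anxa3, an annexin, stood at 24.7, 20.8 and 24.5 CPM in Treg libraries against 38.7, 49.1 and 69.1 CPM in Control libraries, highest in Control replicate 3 like Eno1. The 5 most like Eno3 were Tmem50b (0.995), Sgk3 (0.995), Slc4a3 (0.994), Wbp1 (0.993) and Zfp982 (0.993). Slc4a3, an anion exchanger of heart muscle, stood at 234, 268 and 210 CPM in Treg libraries against 243, 228 and 140 CPM in Control libraries, lowest in Control replicate 3 like Eno3. All these correlations are the highest among 12767 genes over 6 points, and so are high by choice.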

How the data were processed

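Left ventricular RNA was sequenced as stranded mRNA libraries with paired 101 bp reads, per the labels' protocols. The build GRCm38 and the tools HISAT2 2.1.0, Trimmomatic 0.39, Cuffdiff 2.2.1 and featureCounts 2.0.6 are named, per the submitters' processing notes, without their roles or options. The authors deposited estimated counts per gene, not normalized, 46.5% to 50% of the values above 0 being fractional; 6 columns matching no listed sample were not used. GENCODE M21 named 47224 of 47729 IDs.

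Counts were rounded, filtered with filterByExpr (17365 genes kept), scaled with TMM factors and tested for Treg against Control with edgeR 4.0.16 (robust quasi-likelihood F test, two-sided, Benjamini-Hochberg adjustment, threshold 0.05) in R 4.3.3. The test had been planned for whole counts and the table held estimated ones. Standard errors are the log2 fold change over the square root of F. Shares were tested by exact permutation (SciPy 1.17.1). The edgeR step was tested on simulated counts. Alternatives were DESeq2 1.42.0, limma-voom (limma 3.58.1, with and without sample weights), other scalings, filters and a replicate block, and omitted libraries; summing Eno1 with the pseudogenes, recounting the lists under each alternative, and leaving out Control replicate 3 and Treg replicate 3 together for the Eno3 share were added after seeing the data. Members and lists were chosen with earlier results of these data known. The naming rule took the enolase genes, their tested pathway neighbours, at most 4 genes with the smallest p of each list described, and the 5 genes most like Eno1, Eno2 and Eno3. Shared windows were exact matches on either strand among GENCODE M21 transcripts. Promoters are from RefSeq.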

Additional observations from a re-analysis of the deposited data

How the results depend on the processing

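The number of genes called by edgeR was 0 and became 650 with DESeq2, 38 without a filter on low counts, 119 without Control replicate 3 and Treg replicate 3 together, 264 with limma-voom and sample quality weights, and 0 to 230 over the single omissions, 230 being without Control replicate 3. Eno1 kept its sign in all 19 alternatives (log2 fold change −1.22 to −0.82), with −1.04 by DESeq2 and −0.87 with sample quality weights past the threshold (adjusted p = 0.000785 and 0.0372). Eno1b kept its sign in the 17 in which it was a row of its own, with −1.05 and −0.91 past it in the same fits (0.000306 and 0.0288). Single omissions gave −1.21 to −0.86, past it without Control replicate 3. Eno3 ranged from −0.04 to 0.52 over the single omissions, reversed only without Control replicate 3 (−0.04).

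The glycolytic and neighbour lists overlap, so calls of Pgk1 and Pkm are counted in both. The lists held 0 called genes by edgeR. By DESeq2, which called 3.9% of all genes, they held 3 of 17 tested glycolytic steps, 2 of 6 enolase neighbours, 1 of 14 muscle-type enzymes, 3 of 24 HIF-1 targets and 3 of 7 neuronal markers. With sample quality weights, where 264 of 17365 genes were called, each of these lists had 1 except the muscle-type enzymes, which had 0. Single omissions gave 0 to 2, 0 to 1, 0, 0 and 0 to 1 for the same lists in that order. Those calls all came without Control replicate 3, where 230 of 17648 genes were called. Omitting Control replicate 3 and Treg replicate 3 together gave 1 HIF-1 target and 1 neuronal marker, beside 119 of 17395 genes. The cause of these changes was not tested. The Eno3 share differed by 6.32 to 21.7 points over the single omissions. With the replicate number as a block, 0 genes were called (2472 at an unadjusted p under 0.05), Eno3 had 0.41 (edgeR adjusted p = 0.516), and no call among Eno1, Eno1b and Eno3 changed. Same-numbered libraries deviated from their group means with correlations of −0.142, −0.236 and 0.042, so the numbers were not taken as pairs. Eno2 rests on 260 counts at its lowest, so counting error is small beside the spread between libraries.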
